A study of Mus musculus with 12 samples.

Results

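The mitosis and cyclin genes described here are the 3 gene models whose rows carry the names kif18a, tubg1 and Ccnh. Their members are the 62 exon bins of these models, of 925 exon bins in all, in 3 of 58 gene models. An exon bin is a stretch of a gene model cut at every exon boundary of its transcripts. kif18a had 24 bins, tubg1 25 and Ccnh 13, and every row with one of these names or with the same row-name prefix was taken once.

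The study mixed sequencing reads on a computer to make samples in which the origin of added transcript reads is known. All groups share the source, total RNA of the mouse cell line D1 with ERCC control RNA added, and a background of reads from an unstranded poly(A)-selected TruSeq library of that RNA. The first set of groups has a background from 100 ng of total RNA. Its 6 samples carry further reads of listed transcripts, drawn out of a depth of 20M, 40M or 80M source reads (M stands for megareads). The source library was made with the TruSeq kit from 100 ng or with the NuGENv2 kit from 2 ng. The second set has a background from 1000 ng and 6 samples built alike with other listed transcripts. Both backgrounds also carry synthetic reads of further listed transcripts with even coverage. The 12 samples come in 6 tables, 1 for each kit and depth, each with 5 replicates for either amount of RNA. No label says that replicates are separate cultures, so p-values measure the spread between columns, which may be technical, and all of it comes from 1 cell line. No row used here carries the name of any of 12 cell type marker genes, so the identity of D1 could not be checked.

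Kif18a is a kinesin motor that walks to the plus ends of spindle microtubules, dampens their growth and helps chromosomes line up before they separate. Tubg1 encodes gamma-tubulin, the tubulin from which the gamma-tubulin ring complex starts new microtubules at the centrosome. Ccnh encodes cyclin H, the partner of the kinase Cdk7 in the complex that activates cell cycle kinases and that, as part of the general transcription factor TFIIH, phosphorylates RNA polymerase II. No row used here carries the name of any of 30 other genes of spindle, centrosome and cyclin pathways, so no pathway list could be described beside the 3 models.

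The labels place the 3 models on different lists. Of the 4 transcripts in the Ccnh row names, uc007ris.1 is listed for kit reads in the 100 ng background. Of the 4 in the tubg1 row names, uc007lnl.1 is listed for synthetic reads in the 100 ng background, among models with an endogenous background of isoforms. Of the 5 in the kif18a row names, uc008lly.1 is listed for synthetic reads in the 100 ng background and uc008lmc.1 for synthetic reads in the 1000 ng background, both with a complex background of isoforms.

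Bin widths were matched to the annotation of the mouse genome NCBIM37, the build that mm9 names. Kif18a lies on the plus strand of chr2:109120895-109181904 and its 24 bins follow 17 exons and 7 stretches of intron. Ccnh lies on the plus strand of chr13:85329013-85363074, with 12 bins in 9 exons and 1 bin in the intron after exon 8. The tubg1 model spans 2 neighbouring genes. Bins E001 to E011 are the 11 exons of Tubg1, plus strand, chr11:100981252-100987733. Bins E013 to E025 are 11 exons and 2 intron stretches of Tubg2, plus strand, chr11:101017221-101023101, which encodes a second gamma-tubulin. Bin E012 held no read in any column and was not placed.

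The sequences below show the places where the read profiles change. They are plus-strand sequence of NCBIM37, 5′ to 3′. In Ccnh exon 5, chr13:85341938-85342101, the capitals mark bin E007, a stretch of 13 bases between E006 and E008. In Ccnh exon 6, chr13:85345733-85345803, and exon 7, chr13:85348383-85348494, the capitals mark the 10 bases on each side of the junction after which no bin gained reads, in every table but that of TruSeq at 20M.

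Ccnh exon 5, E006 to E008: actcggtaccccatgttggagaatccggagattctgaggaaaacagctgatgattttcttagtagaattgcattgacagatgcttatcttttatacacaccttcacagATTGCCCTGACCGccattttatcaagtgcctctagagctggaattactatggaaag

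Ccnh exon 6, E009: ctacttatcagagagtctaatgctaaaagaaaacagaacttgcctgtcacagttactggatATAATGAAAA

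Ccnh exon 7, E010: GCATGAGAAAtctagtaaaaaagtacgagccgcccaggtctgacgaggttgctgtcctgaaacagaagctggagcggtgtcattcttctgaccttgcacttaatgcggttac

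Exon 3 is shown for both gamma-tubulin genes because bin E017 is the bin of the tubg1 model whose usage differed between the backgrounds in most tables. Tubg1 exon 3 is chr11:100982145-100982312 and Tubg2 exon 3 is chr11:101018067-101018234. Capitals mark the 4 of 168 bases that differ.

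Tubg1 exon 3, E003: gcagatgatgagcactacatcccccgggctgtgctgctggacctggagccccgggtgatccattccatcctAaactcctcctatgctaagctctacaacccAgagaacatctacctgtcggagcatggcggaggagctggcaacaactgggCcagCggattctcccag

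Tubg2 exon 3, E017: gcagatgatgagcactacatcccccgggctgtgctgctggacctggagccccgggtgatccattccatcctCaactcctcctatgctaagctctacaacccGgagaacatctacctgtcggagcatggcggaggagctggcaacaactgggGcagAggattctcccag

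Kif18a exon 12, chr2:109150704-109150825, and exon 13, chr2:109158032-109158267, stand at the start of the 3′ block of exons whose level varied most between columns. Capitals mark the last 10 bases of exon 12 and the first 10 bases of exon 13.

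Kif18a exon 12, E018: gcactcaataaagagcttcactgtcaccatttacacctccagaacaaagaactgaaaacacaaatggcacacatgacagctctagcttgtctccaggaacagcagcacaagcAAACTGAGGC

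Kif18a exon 13, E020: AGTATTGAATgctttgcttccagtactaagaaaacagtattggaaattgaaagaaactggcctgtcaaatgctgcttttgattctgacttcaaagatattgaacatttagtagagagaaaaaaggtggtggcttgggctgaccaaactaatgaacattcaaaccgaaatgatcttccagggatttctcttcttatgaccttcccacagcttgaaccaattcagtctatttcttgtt

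Over 5 of the tables, the columns of the 100 ng background held 237258 to 492142 reads in bins, against 347941 to 593002 in the 1000 ng background. The TruSeq table at 20M source reads stood apart, with 1101798 to 1281559 reads in the 100 ng background. Each result is therefore given by table, and that table is described last. Levels below are FPKM equivalents, reads per megaread and per kilobase of the bin width less 1 base, the divisor of the deposited values, after scaling each column by a median-of-ratios size factor. Log2 differences are 100 ng minus 1000 ng on the log2(value + 1) scale, which understates changes of low values. A difference was called at an adjusted p under 0.05 in limma, with Benjamini-Hochberg adjustment over 922 tested bins or 58 gene models. For all 3 models the 1000 ng columns hold the same reads in all 6 tables, and the tables are not independent of each other.

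Ccnh rose in the 100 ng background with 40M and 80M TruSeq reads, while the totals of kif18a and tubg1 were not called there. The labels list a Ccnh transcript for kit reads in the 100 ng background only, and no kif18a or tubg1 transcript for kit reads. The side on which Ccnh kit reads were added was thus set by the design. The bins that rose were among its first 9. With 80M TruSeq source reads the Ccnh total, the sum of FPKM equivalents over its bins, was 686, 721, 547, 525 and 659 in the 5 columns of the 100 ng background. In the 1000 ng background it was 294, 332, 304, 309 and 275. All 5 columns of the 100 ng background lay above all 5 of the 1000 ng background on this scale. Unscaled reads over the model overlapped, with 515 to 979 in the 100 ng background against 358 to 928 in the 1000 ng background. The sum weighs short bins heavily: E007, 13 bases wide, had a mean of 287 with 100 ng and 106 with 1000 ng. The means were 628 ± 86.6 with 100 ng and 303 ± 20.9 with 1000 ng (SD, n = 5 each), a log2 difference of 1.04 ± 0.10 (SE), with a limma adjusted p of 5.1e-05. Of all 58 model totals in this table, 34.5% were called, with 22.4% called higher in the 100 ng background. With total reads over total length in place of the sum of levels, an alternative chosen after seeing the data, the log2 difference was 0.68 ± 0.08 (SE), with a limma adjusted p of 8.48e-05.

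At 40M TruSeq source reads the Ccnh totals again did not overlap, with 391 to 489 in the 100 ng background against 272 to 318 in the 1000 ng background. Unscaled reads again overlapped, with 361 to 825 against 358 to 928. The log2 difference was 0.58 ± 0.08 (SE), with a limma adjusted p of 0.000407, in a table where 25.9% of model totals were called and 15.5% called higher in the 100 ng background. With columns scaled by the sum of their reads over bins it was 0.52 ± 0.30 (SE) and was not called, with a limma adjusted p of 0.457. As total reads over total length it was 0.35 ± 0.07 (SE), with a limma adjusted p of 0.0032. The NuGENv2 tables gave log2 differences of -0.20, -0.12 and 0.03 at 20M, 40M and 80M source reads, and none of these passed the test, with limma adjusted p of 0.427, 0.714 and 0.884. The columns of both backgrounds overlapped in each of the NuGENv2 tables. Here 0%, 8.62% and 12.1% of model totals were called in either direction. The kits cannot be compared by a test, because the 1000 ng columns are shared and the reads added to a bin are the same in all 5 columns.

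**Figure D1:**
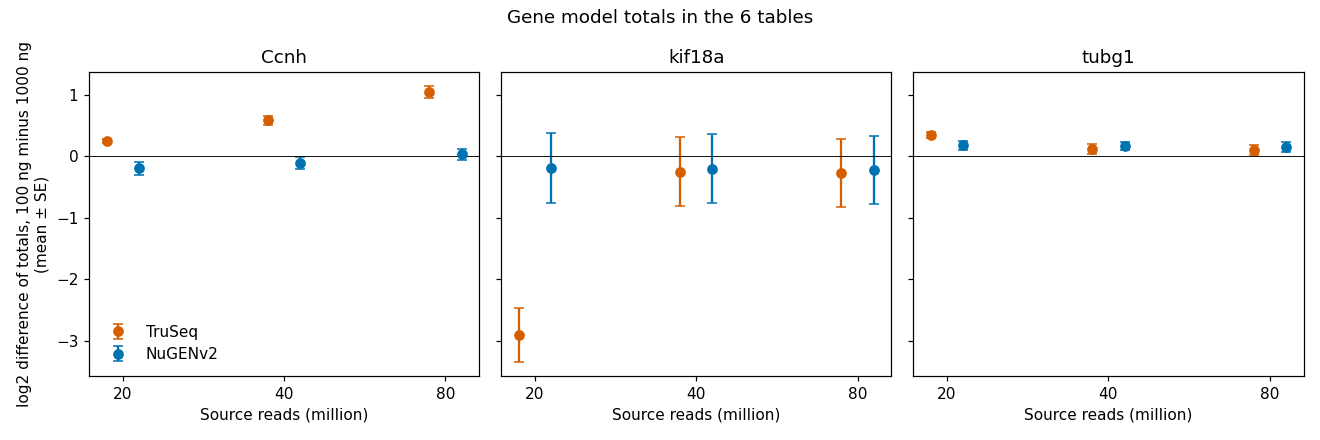
Log2 difference of gene model totals, 100 ng minus 1000 ng, against source reads in M, for Ccnh, kif18a and tubg1, with TruSeq in orange and NuGENv2 in blue; points are limma estimates and bars are SE over 5 columns each. Ccnh reached 1.04 with 80M TruSeq reads and stayed between -0.20 and 0.03 with NuGENv2 reads, while kif18a and tubg1 left their other values in the TruSeq table at 20M reads.

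The reads that entered Ccnh can be counted, since the same background lies under every table. Ccnh bins E001 to E009 gained reads between the tables, and E010 to E013 gained 0 in every step outside the TruSeq table at 20M. From 40M to 80M source reads the bins gained 154 reads in sum with TruSeq and 34 with NuGENv2. From 20M to 40M NuGENv2 source reads they gained 15. Sums count a read once for each bin it was assigned to, and neither the labels nor the tables say how reads that cross bins were counted. In the 1000 ng background no Ccnh bin gained a read.

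Bin E001, the first exon, held 84, 85, 110, 100 and 79 reads in the 100 ng background with 80M TruSeq reads, against 35, 82, 25, 48 and 27 in the 1000 ng background. In the NuGENv2 table at 80M it held 33, 34, 59, 49 and 28 in the 100 ng background over the same 1000 ng columns. The unscaled reads of the 1000 ng columns therefore overlapped the 100 ng columns with both kits. Replicate 2 of the 1000 ng background had the largest size factor of that table, 1.81. E001 gained 28 reads from 40M to 80M source reads with TruSeq and 4 with NuGENv2, a ratio of 7.0 (exact 95% interval 2.45 to 27.5). This interval covers counting error only. Kit and RNA input of the source library, 100 ng with TruSeq and 2 ng with NuGENv2, cannot be told apart in any of these comparisons.

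Bin E002, the second exon, did not follow its neighbours. It gained 7 reads in that step with TruSeq and 8 with NuGENv2, a ratio of 0.875 (exact 95% interval 0.270 to 2.76). At 80M source reads it held 1 read fewer with TruSeq than with NuGENv2, while E001 held 51 more and E003 held 19 more. In the other 7 bins that gained reads the ratio lay between 3.0 for E003 and 16 for E009, where 16 reads stood against 1. The intervals of E003 and E005 reached below 1, and those of the other 5 did not. These intervals also cover counting error only, and bins of a model share reads. They are therefore not separate from each other and are no test of the kits.

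**Figure D2:**
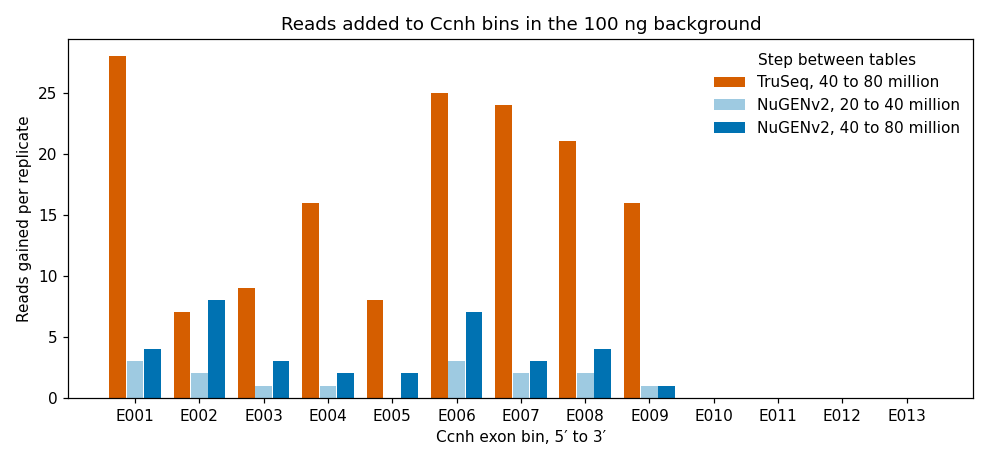
Reads gained per replicate in each Ccnh bin of the 100 ng background, with bins in 5′ to 3′ order, for the step from 40M to 80M TruSeq source reads (orange) and the steps from 20M to 40M and 40M to 80M NuGENv2 source reads (light and dark blue). Gains stop after E009, and E002 is the bin in which TruSeq (7 reads) did not exceed NuGENv2 (8 reads) in the last step.

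Across the junction between exons 6 and 7 printed above, the counts split. E009, exon 6, measured 38.1, 40.4, 30.7, 34.6 and 34.5 FPKM equivalents in the 100 ng background with 80M TruSeq reads, against 18.2, 23.9, 18.7, 20.7 and 19.2 in the 1000 ng background. E010, exon 7, measured 13.6, 19.8, 18.6, 21.2 and 11.2 in the 100 ng background against 15.1, 22.1, 20.9, 23.3 and 19.4 in the 1000 ng background. The groups were apart in E009 and overlapped in E010. The log2 differences were 0.79 ± 0.11 (SE) in E009, with a limma adjusted p of 0.000427, and -0.27 ± 0.19 in E010, with 0.442. E011 and E013, exons 8 and 9, gave log2 differences of -0.07 and -0.07, with limma adjusted p of 0.850 and 0.843.

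Of the 13 Ccnh bins tested with 80M TruSeq reads, 8 were called higher in the 100 ng background and 0 lower, beside 21.4% of all 922 bins called, 13.4% higher and 7.92% lower. The 8 were E001 and E003 to E009. The median log2 difference of the 13 bins was 0.81, against -0.04 over all bins tested. At 40M TruSeq reads 7 of the 13 were called, E001 and E003 to E008, beside 10.5% of all bins called higher and 16.9% called in either direction, and the median was 0.44 against -0.03. With columns scaled by the sum of their reads over bins, 4 of the member bins were called at 80M and 0 at 40M, and the exact permutation test called 8 and 0. The shares of all bins called under these alternatives are not given, so the counts show only how the member calls moved. At 40M, 8 Ccnh bins had an unadjusted p under 0.05 in the exact permutation test. With 5 columns against 5 the smallest p of that test is coarse. After adjustment over all bins it can call a bin only where many bins reach that p, so its counts of 0 say little. With 80M NuGENv2 reads 1 of the 13 was called, E006, with a log2 difference of 0.34 ± 0.09 (SE) and a limma adjusted p of 0.0414, beside 7.16% of all bins called higher and 12.3% called. That call was lost in the exact permutation test, in both scaling alternatives, with a pseudocount of 0.1 and with the replicate block. With single columns left out, a Ccnh bin was called in this table only without replicate 4 of the 100 ng background. With 20M and 40M NuGENv2 reads 0 of the 13 were called by limma, with 2 and 1 at an unadjusted p under 0.05 and 0 called by the exact permutation test, beside 1.95% and 4.99% of all bins called in either direction.

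The largest level in Ccnh stood in E007, the 13-base stretch in capitals in exon 5. It measured 333, 325, 234, 222 and 320 FPKM equivalents in the 100 ng background with 80M TruSeq reads, against 116, 108, 106, 111 and 87.8 in the 1000 ng background. The columns did not overlap, and replicates 3 and 4 of the 100 ng background were lowest. Their size factors, 1.43 and 1.24, were the largest of the 100 ng background. The log2 difference was 1.42 ± 0.15 (SE), with a limma adjusted p of 8.31e-05. In reads, E007 held 69, 62, 94, 77 and 62 in the 100 ng background and 35, 55, 29, 34 and 22 in the 1000 ng background, close to the 108-base bin E006 beside it. The same number of reads over 13 bases gives a higher level than over 108.

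**Figure D3:**
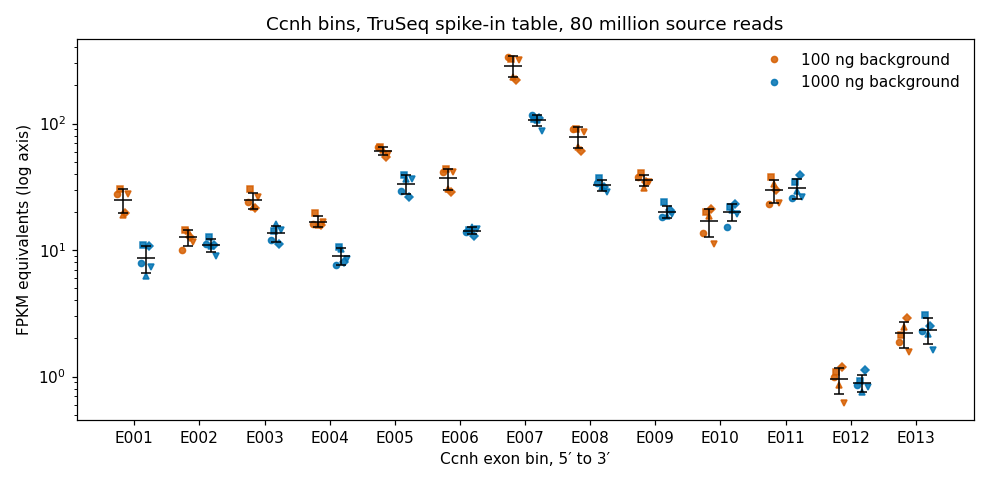
FPKM equivalents on a log axis of the 13 Ccnh bins with 80M TruSeq source reads, 100 ng background in orange left of the 1000 ng background in blue; each symbol is 1 of 5 replicates, and black marks are the mean ± SD. The backgrounds are apart in E001 and E003 to E009 and overlap in E002 and E010 to E013, and E007, 13 bases wide, is the highest bin. The share of all bins in which the backgrounds are apart was not counted.

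Bin usage, the difference of a bin from the other bins of its model, moved in both directions in Ccnh. The F test of usage over the whole model gave limma adjusted p of 2.33e-20 and 2.46e-11 with 80M and 40M TruSeq reads. It gave 0.141 with 20M TruSeq reads and 0.0690 to 0.321 in the NuGENv2 tables. With 80M TruSeq reads E001, E006, E007 and E008 were called higher in usage in the 100 ng background and E002, E010, E011, E012 and E013 lower, which is 9 of 13 bins beside 7.81% of all bins called higher and 11.3% lower. E010 had the lowest value, with a log2 difference from the other bins of -1.0 and a limma adjusted p of 1.95e-08. It held 4.56%, 5.90%, 7.05%, 7.94% and 3.88% of the Ccnh reads in the 100 ng background against 9.55%, 11.2%, 12.4%, 13% and 12.6% in the 1000 ng background. In the TruSeq table at 40M, 4 Ccnh bins were called higher and 4 lower, beside 5.86% and 8.03% of all bins. With the exact permutation test of shares of model reads, 4 member bins were called in usage in that table, against 9 with limma. The share of all bins called by that permutation test is not given. Bins of a model share reads and are not independent, and the added reads do not vary between columns, so the p-values hold no sampling of the added reads. Kit reads of a Ccnh transcript are listed for the 100 ng background only, and they entered some bins and not others. A shift in usage was thus set up by the design, and the tests are no independent support for it. Which bins uc007ris.1 covers is not known.

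Kif18a showed a wide spread between columns and no called difference outside the TruSeq table at 20M reads. Its total with 80M TruSeq reads was 1910, 10033, 2745, 2417 and 11297 FPKM equivalents in the 100 ng background and 6308, 3710, 8733, 4182 and 4321 in the 1000 ng background. Replicates 2 and 5 of the 100 ng background lay above every column of the 1000 ng background and replicates 1, 3 and 4 lay below. The log2 difference was -0.27 ± 0.55 (SE), with a limma adjusted p of 0.802. In the 4 other tables of this kind it lay between -0.19 and -0.25, with limma adjusted p from 0.824 to 0.912. The reads over kif18a bins were the same in these 5 tables, because no bin gained a read. The labels list kif18a for synthetic reads in both backgrounds, with a different transcript in each. Which bins these transcripts cover is not known.

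With 80M TruSeq reads the bins of exons 1 to 11 had mean levels of 221 to 674 FPKM equivalents in the 100 ng background and 197 to 626 in the 1000 ng background. Tubg1 exons had mean levels of 18.5 to 55 with 100 ng and 17.9 to 53.1 with 1000 ng on the same scale per length. Synthetic reads are listed for kif18a in both backgrounds and for tubg1 with 100 ng, so these need not be levels of D1 alone. How much of them is synthetic was not tested. E013, exon 8, was the highest Kif18a bin on average, with 158, 1202, 345, 269 and 1398 in the 100 ng background and 685, 452, 912, 537 and 541 in the 1000 ng background. The groups overlapped. The intron stretches E004, E006 and E008 together stood at 3.84% to 7.30% of the level of exons 1 to 6 in the 100 ng background and at 3.54% to 6.80% in the 1000 ng background.

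The 3′ exons 13 to 17, bins E020 to E024, set the columns apart. Their level was 25.6%, 18.4%, 2.05%, 20.0% and 18.2% of that of exons 1 to 6 in the 100 ng background and 41.8%, 19.4%, 50.2%, 8.96% and 2.71% in the 1000 ng background. Low columns occurred in both groups, replicate 3 with 100 ng and replicates 4 and 5 with 1000 ng. Exon 12, bin E018, lay between the blocks, at 8.24% to 48.3% in the 100 ng background and 11.4% to 87.7% in the 1000 ng background. Exons 7 to 11 stood nearer to exons 1 to 6, at 67.3% to 112% in the 100 ng background and 98.8% to 110% in the 1000 ng background.

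E022, exon 15, was the highest bin of the 3′ block. It measured 102, 370, 7.54, 95 and 397 FPKM equivalents in the 100 ng background with 80M TruSeq reads, against 451, 134, 719, 73.9 and 22.8 in the 1000 ng background. The groups overlapped in part, with replicates 1 and 3 of the 1000 ng background above every column of the 100 ng background and replicate 3 of the 100 ng background below every column of the 1000 ng background. The log2 difference was -0.53 ± 1.21 (SE), with a limma adjusted p of 0.843. The intron stretch E019, which follows exon 12 directly, did not follow the 3′ exons. It stood at 26.9% to 52.4% of exons 1 to 6 in the 100 ng background and 40.0% to 52.9% in the 1000 ng background, also in the columns where exons 13 to 17 were lowest.

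**Figure D4:**
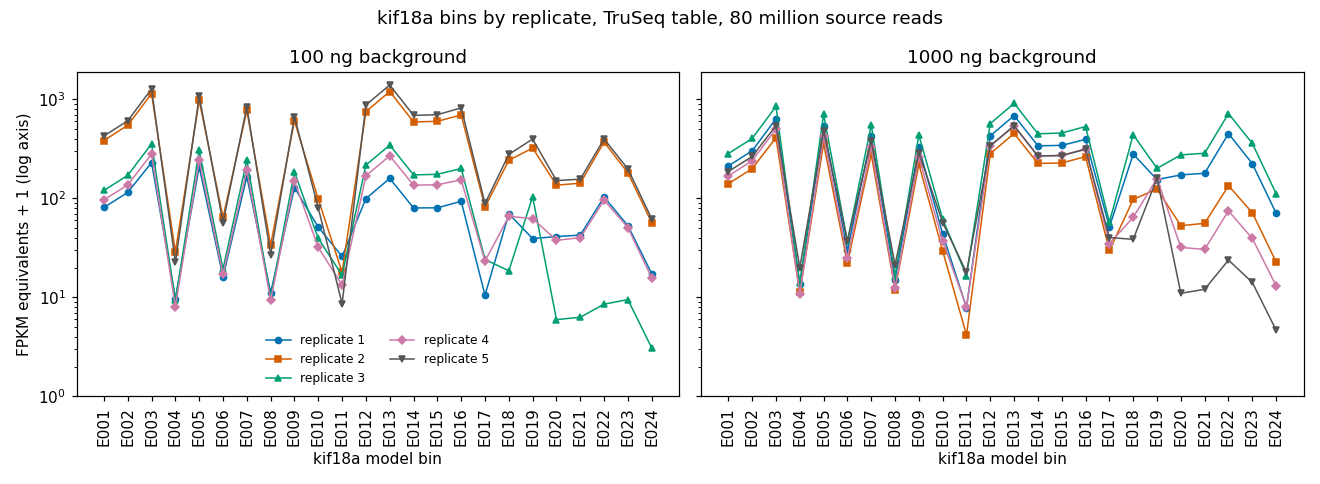
FPKM equivalents + 1 on a log axis of the 24 kif18a bins, with 80M TruSeq source reads, in the 100 ng background (left) and the 1000 ng background (right); each line is 1 of 5 replicates. Intron stretches other than E019 form the troughs, and E020 to E024 fall to 2.05% of exons 1 to 6 in replicate 3 of the 100 ng background and to 2.71% in replicate 5 of the 1000 ng background.

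Other bins named for their usage gave no called difference either. With 80M TruSeq reads E011, an intron stretch after exon 6, had 24.9, 17, 15.8, 12.3 and 7.65 FPKM equivalents in the 100 ng background against 6.86, 3.18, 15.6, 7.04 and 16.9 in the 1000 ng background. Its log2 difference was 0.71 ± 0.43 (SE), with a limma adjusted p of 0.345. For E010, E008, E018 and E020 the log2 differences were 0.32, 0.06, -0.48 and -0.44, with limma adjusted p from 0.607 to 0.949. Outside the TruSeq table at 20M, 0 of 24 kif18a bins were called by limma in any table and 0 had an unadjusted p under 0.05. This stood beside 1.95% to 21.4% of all bins called by limma in these tables. The exact permutation test also gave 0 with an unadjusted p under 0.05. Its count of 0 after adjustment says little, given its coarse smallest p. In usage 0 of 24 were called in all 6 tables, beside 3.9%, 5.53% and 10.8% of all bins in the NuGENv2 tables and 18.1%, 13.9% and 19.1% in the TruSeq tables at 20M, 40M and 80M. The usage test takes its error from the spread between columns, which the kif18a bins share and which is wide. It therefore had little room for a call, and the count does not show that kif18a usage was equal.

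The tubg1 model was close in both backgrounds in total, and 1 of its bins was called in usage outside the TruSeq table at 20M. With 80M TruSeq reads the total was 406, 425, 480, 441 and 402 FPKM equivalents in the 100 ng background and 407, 457, 348, 414 and 392 in the 1000 ng background. The columns overlapped, and the log2 difference was 0.10 ± 0.09 (SE), with a limma adjusted p of 0.512. In the 4 other tables without the library-wide gain it lay between 0.12 and 0.18, with limma adjusted p from 0.198 to 0.344. No tubg1 bin gained a read between these tables. The labels list uc007lnl.1 of this model for synthetic reads in the 100 ng background only. Any reads added for it thus stand on that side by design, and which bins it covers is not known.

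Nearly all reads of the model lay over Tubg1. The Tubg2 bins held 28, 60, 81, 45 and 58 reads in the 100 ng background, which is 2.99%, 6.80%, 3.77%, 2.66% and 6.82% of the model. In the 1000 ng background they held 54, 87, 41, 36 and 35 reads, or 3.98%, 3.39%, 3.87%, 2.61% and 3.26%. Replicates 2 and 5 of the 100 ng background had the highest shares. Tubg1 and Tubg2 are close copies: over exons 2 to 10, 9 pairs of equal width, 53 of 1109 bases differed, an identity of 95.2%. Identity ranged from 85% in exon 5 to 98.8% in exon 10, and the longest stretch without a difference was 110 bases, in exon 8. Reads from such stretches could be assigned to either gene, so the levels of Tubg2 bins are uncertain.

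E017, exon 3 of Tubg2, had the largest usage difference of the tubg1 model outside the TruSeq table at 20M. It held 7, 40, 21, 9 and 34 reads in the 100 ng background against 9, 16, 8, 9 and 8 in the 1000 ng background. In FPKM equivalents with 80M TruSeq reads this was 2.43, 15.1, 3.76, 1.86 and 12.6 in the 100 ng background against 2.15, 2.26, 2.09, 2.11 and 2.3 in the 1000 ng background. Replicates 2 and 5 of the 100 ng background were high, replicates 1 and 3 lay slightly above the 1000 ng background and replicate 4 below it, so the groups overlapped.

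The log2 difference of the E017 level was 0.99 ± 0.47 (SE), with a limma adjusted p of 0.191. Its usage differed from the other bins of the model by 0.98 on the log2 scale, with a limma adjusted p of 9.69e-05, and it was called in each of the 5 tables without the library-wide gain. It was the 1 called of 24 tubg1 bins in each of these tables. Of all bins, 3.9%, 5.53% and 10.8% were called in usage in the NuGENv2 tables at 20M, 40M and 80M. In the TruSeq tables at 40M and 80M, 13.9% and 19.1% were called. The share of tubg1 bins called was close to that of all bins with 20M NuGENv2 reads and below it with 80M TruSeq reads. In the TruSeq table at 20M the usage difference of E017 had the other sign, -0.25, and was not called, with a limma adjusted p of 0.0767. As a share of the reads of the model, E017 held 0.749%, 4.53%, 0.979%, 0.533% and 4.0% in the 100 ng background against 0.664%, 0.624%, 0.755%, 0.653% and 0.744% in the 1000 ng background. The exact two-sided permutation test of this share gave an unadjusted p of 0.127, and 0.275 after adjustment over all bins, so the call does not hold in that test. Without replicate 2 of the 100 ng background the usage difference was 0.62 and without replicate 5 it was 0.69, with limma adjusted p of 0.0160 and 0.0167. Synthetic reads of a tubg1 transcript are listed for the 100 ng background only. Their part in the usage difference of E017 was not tested.

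The paired exon of Tubg1 showed no such columns. E003, which differs from E017 at the 4 capital bases above, measured 21.9, 27.1, 29.4, 29.6 and 24.8 FPKM equivalents in the 100 ng background and 27.2, 32.0, 26.4, 28.4 and 25.2 in the 1000 ng background. The groups overlapped, and replicates 2 and 5 of the 100 ng background were not its highest columns. The intron stretch E016, which ends where E017 begins, had its highest values in the same 2 columns, with 0.607, 1.98, 0.626, 0.362 and 1.30 in the 100 ng background against 0.417, 0.370, 0.458, 0.205 and 0 in the 1000 ng background, from at most 6 reads in a column. Its log2 difference was 0.57 ± 0.22 (SE), with a limma adjusted p of 0.108.

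The first Tubg1 exons were also highest in those columns. E001 measured 23.0, 38.5, 27.2, 29.3 and 33.5 FPKM equivalents in the 100 ng background against 19.4, 25.3, 16.2, 27.9 and 19.9 in the 1000 ng background, a log2 difference of 0.47 ± 0.18 (SE) with a limma adjusted p of 0.108. E002 measured 41.4, 75.2, 49.4, 45.7 and 63.5 in the 100 ng background against 35.2, 46.7, 33.2, 44.7 and 36.4 in the 1000 ng background. Both bins overlapped between the backgrounds. Exons 6 to 11, E006 to E011, were lowest in the same replicates 2 and 5 within the 100 ng background, for example 49.0 and 44.6 in E007, against 58.7 to 59.9 in its other 3 columns. Kif18a totals were highest in replicates 2 and 5 as well. The part of any column property, or of the listed synthetic reads, in these patterns was not tested.

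**Figure D5:**
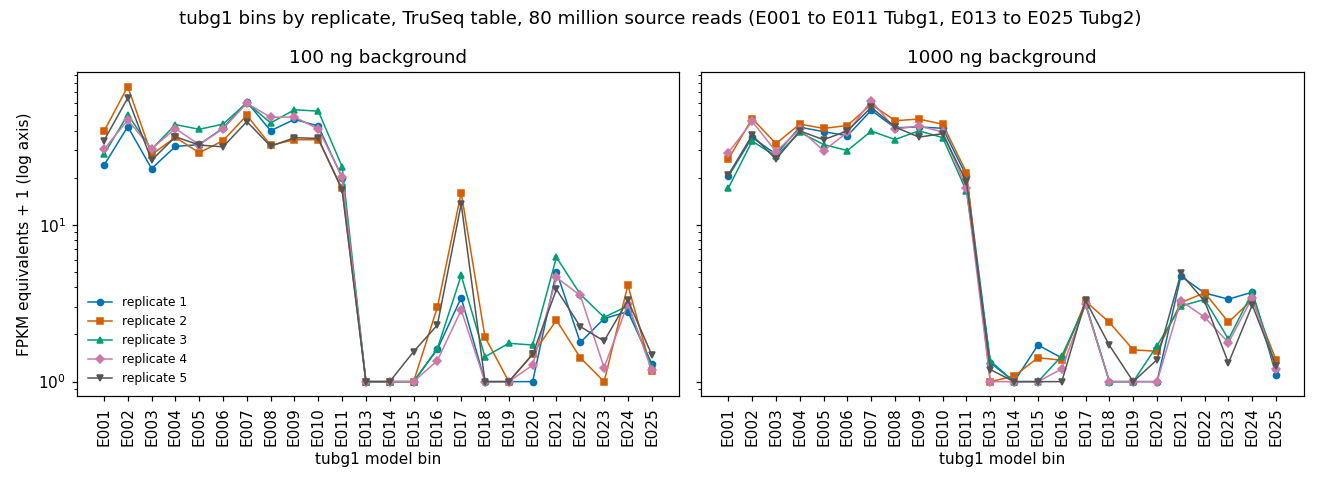
FPKM equivalents + 1 on a log axis of the 24 tubg1 bins that held reads, with 80M TruSeq source reads, in the 100 ng background (left) and the 1000 ng background (right); each line is 1 of 5 replicates. E001 to E011 are Tubg1 and E013 to E025 are Tubg2, and at E017 replicates 2 and 5 of the 100 ng background reach 15.1 and 12.6 against 2.09 to 2.3 in the 1000 ng background.

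Mean levels of Tubg2 exons lay between 0 and 7.14 FPKM equivalents in the 100 ng background, with E017 highest, and between 0.119 and 2.82 in the 1000 ng background. E013, exon 1, held no read in the 100 ng background and had 0.321, 0, 0.353, 0 and 0.193 FPKM equivalents in the 1000 ng background, which is too few reads for a direction. E022, exon 8, had 0.778, 0.422, 2.61, 2.55 and 1.25 in the 100 ng background against 2.67, 2.69, 2.35, 1.58 and 2.25 in the 1000 ng background, and its usage difference of -0.56 had a limma adjusted p of 0.0517. E023, exon 9, had a usage difference of -0.33 with a limma adjusted p of 0.395. Outside the TruSeq table at 20M, 0 of 24 tubg1 bins were called in level by limma and by the exact permutation test, and 3 had an unadjusted p under 0.05 in each table. The share of all bins called was 1.95%, 4.99% and 12.3% in the NuGENv2 tables at 20M, 40M and 80M, and 16.9% and 21.4% in the TruSeq tables at 40M and 80M.

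The TruSeq table at 20M reads differed from all others in the 3 models. Each column of its 100 ng background held the same number of further reads, 2990 over Ccnh, 8915 over tubg1 and 1868 over kif18a, compared with the NuGENv2 table at 20M. All 13 Ccnh bins gained, by 112 to 360 reads, so the stop after E009 was not seen there. In tubg1 the gain was 8668 reads over Tubg1 bins and 247 over Tubg2 bins. In kif18a it was 527 reads per kilobase of full bin width over exons 1 to 6, 537 over exons 7 to 11, 795 in exon 12 and 524 over exons 13 to 17, against 66.3 in E019 and 7.57 over E004, E006 and E008. The gained reads thus lay at like density over the 5′ and 3′ exons of Kif18a, unlike the reads already in the columns.

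Totals of the 3 models did not overlap between the backgrounds in that table. The share of all 58 totals that did not overlap was not counted, so this is not read as a trait of these models. kif18a fell in the 100 ng background, with 216 to 962 FPKM equivalents against 2513 to 6404 in the 1000 ng background, although no bin lost a read. The log2 difference was -2.91 ± 0.44 (SE), with a limma adjusted p of 0.000350, and 23 of 24 bins were called lower, beside 32.6% of all bins. tubg1 was higher, with 364 to 371 in the 100 ng background against 255 to 309 in the 1000 ng background, a log2 difference of 0.34 ± 0.05 (SE) with a limma adjusted p of 0.000350, and 13 of 24 bins were called higher, beside 29.7% of all bins. Ccnh was higher, with 255 to 264 in the 100 ng background against 202 to 225 in the 1000 ng background, a log2 difference of 0.25 ± 0.04 (SE) with a limma adjusted p of 0.000299, and 8 of 13 bins were called higher. With size factors from the models listed for kit reads the Ccnh total was not called, at 0.04 with a limma adjusted p of 0.301, and the tubg1 total was 0.13, with 0.0291. Scaled by the sum of reads over bins, the log2 differences were -1.84 for kif18a, 1.40 for tubg1 and 1.31 for Ccnh. Of all 58 model totals 72.4% were called there, 37.9% higher and 34.5% lower. Of all bins 62.4% were called. In usage tubg1 E016 and Ccnh E005 were called higher there and tubg1 E013, E022 and E023 lower, beside 18.1% of all bins called. Size factors of the 100 ng columns were 2.33 to 2.59, against 0.330 to 0.727 in the 1000 ng background. The 100 ng columns of the NuGENv2 table at 20M lack this gain and stand over the same 1000 ng columns. For Ccnh, listed for kit reads, they may hold NuGENv2 reads that the TruSeq table does not. In that NuGENv2 table the totals gave log2 differences of -0.19 for kif18a, 0.18 for tubg1 and -0.20 for Ccnh, none of them called.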

How the data were processed

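The 6 tables of 10 columns each were used, 5 columns for each background. The submitters' processing notes name STAR, Cuffdiff and mm9 with no version, and do not say how bins were counted. Values were deposited as a coverage signal: whole reads divided by the bin width less 1 base, with no library scaling, except replicate 5 of the 100 ng background, divided further by a total of 16.02 to 16.16 megareads (M), or 200.9 in the TruSeq table at 20M. Widths and totals were inferred from the deposited values, and 100.0% of values gave whole reads within 0.001. Of 1744 rows 818 were repeats, and 1 bin with values that were not finite was left out. Every table had its own limma fit (version 3.58.1, R 4.3.3) on log2(FPKM equivalent + 1), two-sided, 5 columns against 5. Bins of unlisted models needed a mean of 1, and bins with no read were left out. Totals were sums over bins, and usage was tested with diffSplice. The analysis had been planned for normalized values; these units required the scaling. Bins were named when called outside the TruSeq table at 20M, or as the 3 highest and 3 lowest usage differences of a model with 80M TruSeq reads; others appear as neighbours or counts, chosen after their values were seen. Scripts were tested on simulated data. Members and lists were chosen with earlier results of these data known. Tables of the NuGENv2 kit were recognised by their names and by column names without the TruSeq mark. Exact intervals are Clopper-Pearson at 95%. Alternatives covered the pseudocount, scaling, filter, deposited values, moderation, permutation, the replicate block and single columns left out.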

Additional observations from a re-analysis of the deposited data

Results flagged for a closer look

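Of 52 groups of 5 columns, 1 had a column far from the others by Dixon's criterion of 0.71. In Ccnh E004, part of exon 4, replicate 2 of the 100 ng background measured 19.7 FPKM equivalents with 80M TruSeq reads, while the other 4 columns measured 15.7 to 16.6. Chance flags about 1 in 20 groups, and the cause was not tested.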

How the results depend on the processing

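Values are log2 differences, 100 ng minus 1000 ng. Counts of member bins called under the alternatives are given without the share of all bins, and show only how the member calls moved. The deposited values used without correction were the alternative that moved most, and by construction replicate 5 of the 100 ng background is there in another unit. With them tubg1 turned to -0.68 in the 5 tables other than TruSeq 20M and was 1.58 in TruSeq 20M (limma adjusted p 0.486), kif18a in TruSeq 20M was -1.72 (0.486), and Ccnh was -0.69 in NuGENv2 80M, 1.53 in TruSeq 20M, -0.28 in TruSeq 40M and 0.093 in TruSeq 80M, with 0 member bins called in NuGENv2 80M and TruSeq 20M, 40M and 80M. Deposited values without 100 ng replicate 5 gave -0.088 for tubg1 in the same 5 tables, -0.62 for kif18a in TruSeq 20M, and -0.15, 0.31 and 0.73 for Ccnh in NuGENv2 80M, TruSeq 40M and TruSeq 80M, with 0, 0 and 3 member bins called there. Scaling by the sum of reads over bins gave -0.027 for tubg1 in TruSeq 80M and 0.52 for Ccnh in TruSeq 40M, and 0, 0 and 4 member bins called in NuGENv2 80M, TruSeq 40M and TruSeq 80M. It moved the median of all bins to 0.73 in TruSeq 20M and -0.15 in TruSeq 80M. Size factors from models listed for kit reads gave 0.039 for Ccnh in TruSeq 20M (limma adjusted p 0.301), with 29 member bins called there, against 44 in the fit reported, and 0 in NuGENv2 80M. In NuGENv2 80M the 1 called bin also became 0 with a pseudocount of 0.1, the exact permutation test and the replicate block. The exact permutation test called 0 member bins in TruSeq 40M, against 7. By share of model reads it called 0 member bins in usage in each NuGENv2 table, against 1, and 4 in TruSeq 40M, against 9. The smallest p of this test is coarse, so its counts of 0 after adjustment say little. The cause of these shifts was not tested.

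Leaving out 1 column at a time moved kif18a between -0.56 and 0.097, -0.56 and 0.086, and -0.58 and 0.066 in NuGENv2 20M, 40M and 80M, and between -3.15 and -2.61, -0.61 and 0.038, and -0.62 and 0.019 in TruSeq 20M, 40M and 80M. Its sign turned without 100 ng replicate 1 in the 5 tables other than TruSeq 20M. In the same order of tables tubg1 lay at 0.13 to 0.21, 0.12 to 0.20, 0.10 to 0.19, 0.29 to 0.36, 0.07 to 0.16 and 0.05 to 0.14. Ccnh lay at -0.27 to -0.11, -0.18 to -0.042, -0.026 to 0.090, 0.22 to 0.26, 0.54 to 0.62 and 0.99 to 1.10. Member bins called numbered 0 to 0, 0 to 0, 0 to 1, 36 to 44, 4 to 7 (4 without 1000 ng replicate 1) and 8 to 8, and bins called in usage 1 to 2, 1 to 2, 1 to 2, 4 to 8 (8 without 1000 ng replicate 1), 6 to 11 and 9 to 12. Column numbers did not pair the columns, with correlations of deviations from -0.38 to 0.33. With the number as a replicate block, member bins called were 0, 0, 0, 38, 5 and 8, bins called in usage 1, 1, 1, 5, 10 and 10, and the block changed no call of a total. With the 2 alternatives chosen after seeing the data, total reads over total length and bins of introns and Tubg2 left out, every total kept its direction and its side of the threshold. Over all results and alternatives, 520 values kept direction and side, 24 turned, 9 lost their call and 36 moved.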
